A study of Fukomys damarensis and Heterocephalus glaber and Cavia porcellus with 28 samples.

Results

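The genes described here are transcription factors that build the heart and keep heart muscle differentiated: Gata4, Gata6, Nkx2-5, Tbx2, Tbx5, Tbx20, Mef2a, Mef2c, Hand1 and Hand2. They were chosen by symbol, through the mouse gene identifiers of the expression table. Of these 10 genes, 9 were among the 13928 rows of the heart table, and Gata6 was not analysed here. Their expression was compared between hearts of 4 rodent species, with liver of the same species as a second tissue.

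The study sequenced total RNA, after removal of ribosomal RNA, to follow the evolution of gene expression in mole-rats. The mole-rat hearts came from 5 Damaraland mole-rats (Fukomys damarensis) aged 36 to 48 months and 3 naked mole-rats (Heterocephalus glaber) aged 13 to 17 months. The other hearts came from 3 mice (Mus musculus) aged 2 months and 3 guinea pigs (Cavia porcellus) aged 2.3 months. All 14 heart libraries came from males, each from a separately named animal. No group had a treatment or a genetic change in the labels, and the mouse strain, the housing and the part of the heart sampled are not given in the sources used here. The guinea pig and the mouse are the outgroups to the mole-rats. Age differs between the species, so age and species cannot be told apart in any comparison below.

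GATA4 and NKX2-5 are DNA-binding proteins, a zinc finger and a homeodomain protein, that bind each other and switch on heart muscle genes together. T-box proteins bind a common short motif with different outcomes: TBX5 and TBX20 mainly activate genes of working heart muscle, and TBX2 represses them where the valves and the conduction tissue form. MEF2 proteins are MADS-box factors that activate muscle genes and respond to calcium signals. HAND proteins are basic helix-loop-helix factors needed for growth of the ventricles in the embryo, with HAND1 best known in the developing left ventricle and HAND2 in the right ventricle and in sympathetic neurons.

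Values are the deposited variance-stabilised values, a scale close to log2 on which a gene with 0 reads stands at 5.36 in heart. A difference of 1 is close to a 2-fold change for an abundant gene and understates the change of a rare one: doubling the scaled reads from 1000 raised it by 0.946, and doubling them from 10 by 0.282. Scaled reads are reads recovered from these values, divided by the size factor of the library. Neither quantity is corrected for gene length, so levels are compared here between libraries for the same gene and not between genes. The reference of each species is not given, and its length for the same gene may differ between species. The part of such differences in the species contrasts below was not tested. Differences were tested with limma on all genes with a mean at least 1 above the 0-read value. A gene was called at a Benjamini-Hochberg adjusted p under 0.05 over all 10667 tested genes together with an absolute difference of at least 1.

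Heart libraries held 4089633 to 26985779 reads. Naked mole-rat replicate 3 was the shallowest and stood apart from the other naked mole-rat hearts. Its Spearman correlation over the tested genes was 0.921 with replicate 1 and 0.919 with replicate 2, which correlated at 0.985 with each other, and within the other species the correlations ran from 0.935 to 0.99. It also held more RNA of atrial genes: Bmp10, a growth factor of atrial muscle, stood at 1500 scaled reads, against 11.0 and 5.84 in replicates 1 and 2. The contrasts of Nkx2-5, Tbx2 and Hand2 that this library moved are given with and without it. All 9 cardiomyocyte markers were in the table, and their summed level was 640000 scaled reads or more in every heart library. Libraries of whole tissue hold many cell types, and fewer cells of a type and less RNA per cell cannot be told apart.

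Of the 9 genes, 8 passed the filter on low values and were tested, and Hand1 did not. In the average of the mole-rats against the average of the outgroups, 2 of the 8 tested genes were called, against 23.4% of all tested genes: Gata4 fell by 1.03 and Hand2 rose by 1.05. The median difference of the 8 genes was 0.13, against -0.01 over all tested genes. No member was called with 1 sign in all 4 contrasts of a mole-rat with an outgroup, where 4.68% of all tested genes were. For that count limma gave 0 members also at an unadjusted p under 0.05, and voom on the recovered reads gave 0. For none of the 8 did all mole-rat libraries lie on 1 side of all outgroup libraries, which was so for 15.2% of the tested genes.

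**Figure D1:**
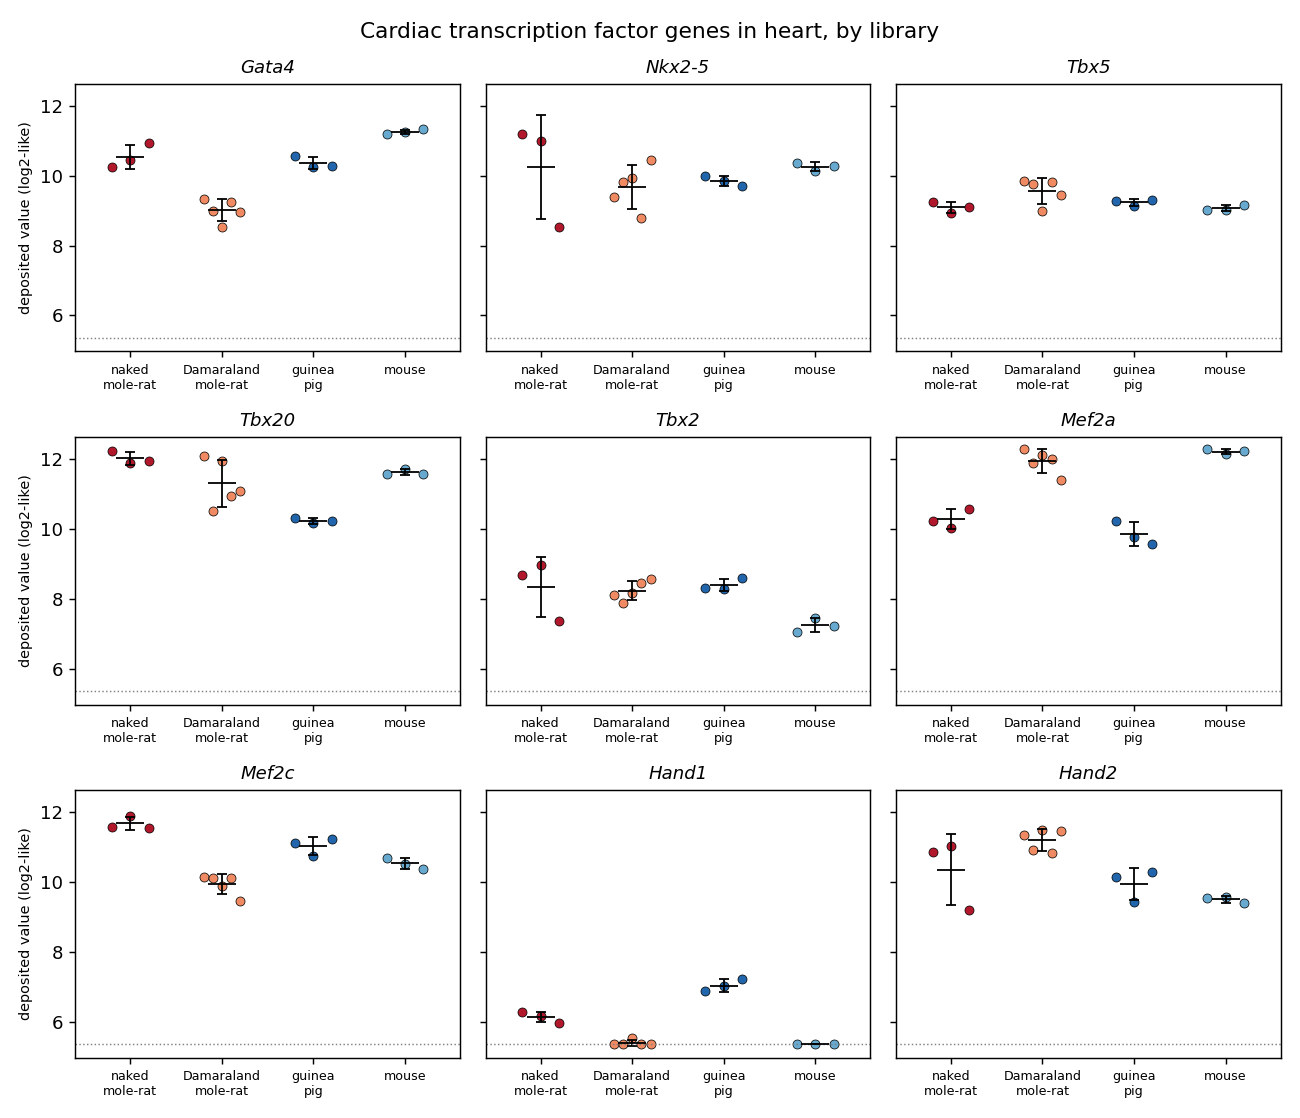
Variance-stabilised value (vertical axis, close to log2) of each of the 9 listed transcription factor genes in every heart library, by species on the horizontal axis; dots are libraries, black bars the mean ± SD over 3 to 5 libraries, and the dotted line the value at 0 reads. Gata4 is lowest in the 5 Damaraland hearts, Mef2a is high in Damaraland and mouse hearts, and 1 naked mole-rat library lies below the others for Nkx2-5, Tbx2 and Hand2.

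Between single species, differences were frequent, as they were for all genes. Across the 6 pairs of species, 6 of the 8 genes were called in at least 1 pair, and 72.0% of all tested genes were. With all libraries the exceptions were Nkx2-5 and Tbx5. Without naked mole-rat replicate 3, Nkx2-5 was called between the naked mole-rat and both the Damaraland mole-rat and the guinea pig. By pair, the members called numbered 3 of 8 between the naked and Damaraland mole-rats (29.4% of all tested genes), 1 between the naked mole-rat and the guinea pig (33.0%) and 3 between the naked mole-rat and the mouse (38.2%). Another 5 were called between the Damaraland mole-rat and the guinea pig (29.7%), 2 between the Damaraland mole-rat and the mouse (34.9%) and 3 between the guinea pig and the mouse (32.1%). Each count is small, and the pairs share libraries, so they are given side by side and not compared with each other.

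**Figure D2:**
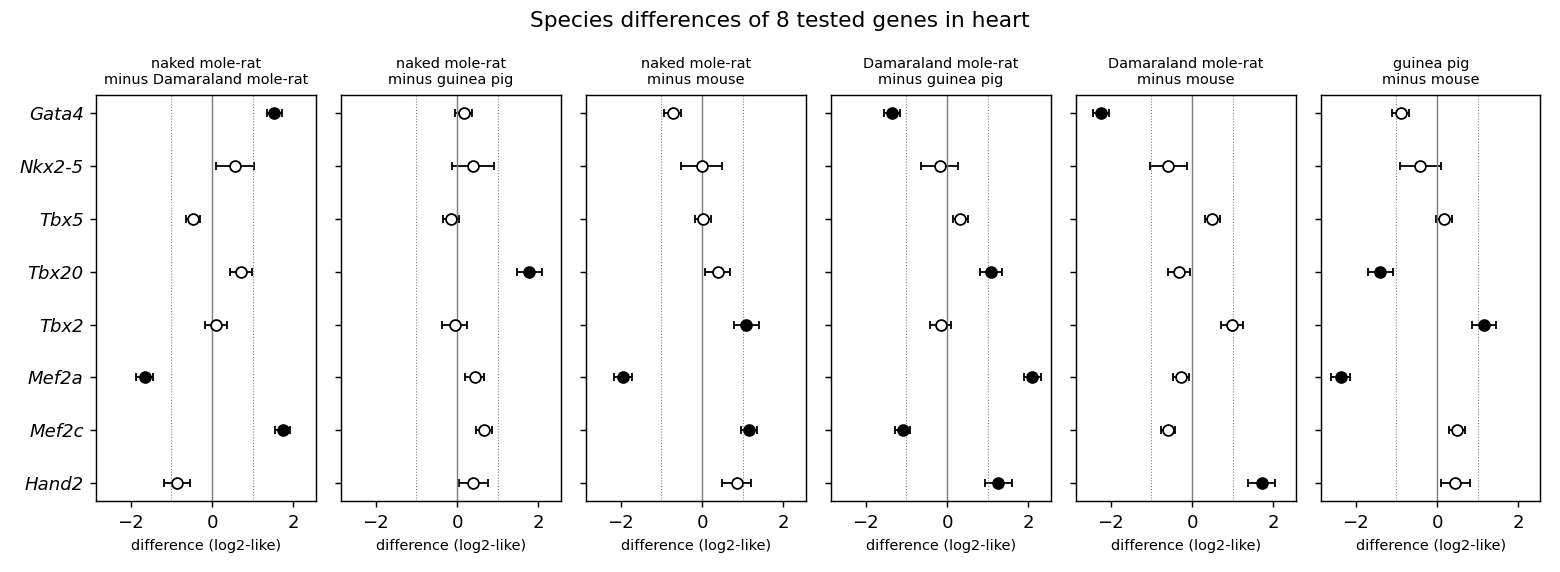
Difference in variance-stabilised value (horizontal axis, first species minus second, close to log2) of the 8 tested genes in the 6 pairs of heart species; points are limma estimates, bars their SE, filled points are called, and dotted lines mark a difference of 1 in either direction. Mef2a has the widest differences, at -2.37 between guinea pig and mouse and 2.10 between Damaraland mole-rat and guinea pig, and Tbx5 stays within 1 in every pair.

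The members differed in how far their species means lay apart. Mef2a spanned 2.37 and Gata4 2.24 from the lowest to the highest species mean, more than 82% and 80% of the tested genes. Tbx20 spanned 1.78, Mef2c 1.74, Hand2 1.71 and Tbx2 1.15. Nkx2-5 with 0.58 and Tbx5 with 0.50 had smaller spans than most genes, since only 8% and 5% of tested genes had a smaller one. The small span of Nkx2-5 rests on naked mole-rat replicate 3. Without that library the naked mole-rat mean exceeded the Damaraland mean by 1.43. The median span was 1.73 over the 8 members and 1.41 over all tested genes.

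Gata4 (ENSMUSG00000021944), the zinc finger factor that opens and activates cardiac enhancers, was lowest in the Damaraland mole-rat and highest in the mouse. In the Damaraland hearts it stood at 9.32, 9.0, 8.52, 9.26 and 8.97, a mean of 9.01 ± 0.31 (SD, n = 5) or 448 scaled reads. In naked mole-rat hearts it stood at 10.25, 10.44 and 10.93 (mean 10.54 ± 0.35, n = 3, 1440 scaled reads), and in guinea pig hearts at 10.56, 10.24 and 10.29 (10.37 ± 0.17, n = 3, 1250 scaled reads). The mouse hearts stood at 11.20, 11.24 and 11.33, a mean of 11.26 ± 0.07 (n = 3) or 2360 scaled reads. Every Damaraland library was below every other library, every mouse library was above every other, and the naked mole-rat and guinea pig libraries overlapped.

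The differences of Damaraland Gata4 were called against each of the other species. It was lower than in the naked mole-rat by 1.53 (SE 0.19, limma adjusted p = 3.08e-06), and the contrasts with the outgroups were -1.35 (SE 0.19, adjusted p = 1.06e-05) against the guinea pig and -2.24 (SE 0.19, adjusted p = 2.59e-08) against the mouse. Naked mole-rat and guinea pig means differed by 0.17 (SE 0.21, adjusted p = 0.498). The mouse exceeded the naked mole-rat by 0.72 (adjusted p = 0.00723) and the guinea pig by 0.89 (the contrast guinea pig minus mouse was -0.89, adjusted p = 0.00176), both short of the size threshold. The fall of Gata4 in the average of the mole-rats, -1.03 (SE 0.14, adjusted p = 7.32e-06), thus joins a low Damaraland value to a naked mole-rat value inside the range of the outgroups. It lay at the size threshold: the estimate was -0.99 after median centring, -0.93 after quantile normalisation, and -0.96, -0.97 and -0.98 without naked mole-rat replicate 1, Damaraland replicate 3 or guinea pig replicate 1, none of which was called.

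Damaraland hearts also stood apart in the summed level of the skeletal muscle and adipocyte marker lists. The 7 of 8 listed skeletal muscle markers found in the table summed to 111000 to 195000 scaled reads in Damaraland hearts, 21200 to 29400 in naked mole-rat, 67200 to 73400 in guinea pig and 45000 to 53800 in mouse hearts. Most of the Damaraland sum was Ckm, a creatine kinase that heart muscle also makes, and 3 of the 7 markers (Ckm, Myf6 and Pax7) had their highest mean there. Myog, Acta1, Tnnt3 and Myh2 went the other way, with their highest mean in naked mole-rat hearts. Myh2 had a mean of 97.6 scaled reads in naked mole-rat and 4.7 in Damaraland hearts. Of the skeletal muscle regulators, Myog was at 0 reads in all 5 Damaraland hearts, Myf6 was read in 4 of 5 at a mean of 2.44 scaled reads, and Pax7 was read in 1. The 5 adipocyte markers summed to 173 to 524 scaled reads in Damaraland hearts, 11.0 to 130 in naked mole-rat, 22.1 to 56.0 in guinea pig and 4.01 to 9.29 in mouse hearts. The brown fat gene Ucp1 was at 0 reads in every heart library of the other 3 species and in 3 of the 5 Damaraland hearts. Their part in the Gata4 difference was not tested.

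Nkx2-5 (ENSMUSG00000015579), the homeodomain partner of GATA4, was called in no pair of species. The mouse hearts stood at 10.37, 10.13 and 10.29 (mean 10.26 ± 0.12), the guinea pig hearts at 10.00, 9.84 and 9.72 (9.85 ± 0.14) and the Damaraland hearts at 9.38, 9.83, 9.93, 8.78 and 10.46 (9.68 ± 0.63). The naked mole-rat hearts stood at 11.21, 11.00 and 8.53 (10.25 ± 1.49), so that this species held the 2 highest libraries and the lowest library of all 14. Replicate 3, the library that stood apart, had 79 Nkx2-5 reads, or 293 scaled reads with an exact Poisson 95% interval of 232 to 365 that covers counting error only. Replicates 1 and 2 had 2290 and 1960 scaled reads.

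With all libraries, neighbouring species means of Nkx2-5 differed by 0.01 to 0.39, within their spread, and no pair reached an unadjusted p under 0.05 in limma. The naked mole-rat differed from the Damaraland mole-rat by 0.57 (SE 0.46, adjusted p = 0.293) and from the guinea pig by 0.39 (SE 0.51, adjusted p = 0.524). Without naked mole-rat replicate 3 the same differences were 1.43 (SE 0.30, adjusted p = 0.00077) and 1.25 (SE 0.33, adjusted p = 0.004), and both were called. Against the mouse the difference was then 0.84 (adjusted p = 0.0347), short of the size threshold. The level of Nkx2-5 in the naked mole-rat therefore rests on that library: replicates 1 and 2 were above every heart of the other species. In replicate 3 the 8 atrial markers found summed to 46400 scaled reads, against 19700 and 13300, and the 6 ventricular markers found to 267000, against 310000 and 344000. In Damaraland replicates 1 to 5 the atrial sums were 22500, 51800, 38100, 42700 and 49600 scaled reads, in this order. Bmp10 stood at 4.37, 16.8, 8.38, 40.8 and 1240 scaled reads in the same libraries. Their Nkx2-5 values were 9.38, 9.83, 9.93, 8.78 and 10.46. The terms of the sums differ: Nppa alone stood at 32100 in naked mole-rat replicate 3, and Stard10 had the highest mean of the list in Damaraland hearts. The part of atrial RNA in the low Nkx2-5 value was not tested.

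Tbx5 (ENSMUSG00000018263), the T-box activator mutated in Holt-Oram syndrome of heart and hand, varied least between species. It stood at 9.25, 8.93 and 9.11 in naked mole-rat hearts (mean 9.10 ± 0.16), at 9.29, 9.13 and 9.30 in guinea pig hearts (9.24 ± 0.10) and at 9.03, 9.01 and 9.17 in mouse hearts (9.07 ± 0.09). The Damaraland hearts stood at 9.84, 9.77, 8.98, 9.82 and 9.44 (9.57 ± 0.37). In Damaraland hearts 4 of 5 libraries lay above all others, and replicate 3 lay among them. The Damaraland mean exceeded the naked mole-rat mean by 0.47 (the contrast naked minus Damaraland was -0.47, SE 0.18, limma adjusted p = 0.032, or 0.0536 without naked mole-rat replicate 3) and the mouse mean by 0.50 (SE 0.18, adjusted p = 0.0226). Both passed the p threshold with all libraries and neither the size threshold, and voom on the recovered reads called no pair. In the order Damaraland mole-rat, guinea pig, naked mole-rat, mouse, no neighbours differed beyond their spread.

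Tbx20 (ENSMUSG00000031965), a T-box factor that adult heart muscle needs to keep its contractile and ion transport genes on, was lowest in the guinea pig. The guinea pig hearts stood at 10.32, 10.16 and 10.22, a mean of 10.23 ± 0.09 or 1120 scaled reads. Naked mole-rat hearts stood at 12.23, 11.89 and 11.94 (12.02 ± 0.18, 4090 scaled reads), and mouse hearts at 11.57, 11.73 and 11.58 (11.63 ± 0.09, 3080 scaled reads). The Damaraland hearts spread over 12.08, 10.50, 11.94, 10.93 and 11.10 (11.31 ± 0.68, 2690 scaled reads). All guinea pig libraries were below all libraries of the other species, and the Damaraland libraries reached from near the guinea pig level to the naked mole-rat level.

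The guinea pig was called lower than each of the other species for Tbx20. The naked mole-rat exceeded it by 1.78 (SE 0.31, limma adjusted p = 0.000103), the Damaraland mole-rat by 1.08 (SE 0.28, adjusted p = 0.00293), and the contrast guinea pig minus mouse was -1.39 (SE 0.31, adjusted p = 0.000993). The Damaraland difference fell short of the size threshold without Damaraland replicate 1 (0.88) or replicate 3 (0.92). The naked mole-rat mean exceeded the mouse mean by 0.39 (SE 0.31, adjusted p = 0.276). The mouse mean exceeded the Damaraland mean by 0.32 (SE 0.28, adjusted p = 0.326). Neither difference passed the p threshold, although all naked mole-rat libraries lay above all mouse libraries. The mole-rat average exceeded the outgroup average by 0.73 (SE 0.21, adjusted p = 0.00503), below the size threshold. The 9 conduction system markers, all in the table, also summed lowest in the guinea pig, at 641 to 778 scaled reads against 1480 to 1650 in naked mole-rat, 1720 to 3530 in Damaraland and 1160 to 1800 in mouse hearts. Only Hcn4 and Cntn2, 2 of the 9, had their lowest mean in the guinea pig, and Tbx3 and Shox2 had their highest there. The largest term was Cacna1g in naked mole-rat, Gja5 in Damaraland and Hcn4 in mouse hearts, and Isl1 was at 0 reads in all 3 mouse hearts. The part of this in the Tbx20 difference was not tested.

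Tbx2 (ENSMUSG00000000093), the T-box repressor of chamber muscle genes, was lowest in the mouse. The mouse hearts stood at 7.04, 7.45 and 7.23, a mean of 7.24 ± 0.20 or 81.2 scaled reads. The guinea pig hearts stood at 8.30, 8.28 and 8.59 (8.39 ± 0.17, 260 scaled reads), and the Damaraland hearts at 8.10, 7.88, 8.15, 8.44 and 8.57 (8.23 ± 0.28, 228 scaled reads). Naked mole-rat hearts stood at 8.67, 8.97 and 7.36 (8.33 ± 0.85, 281 scaled reads). The guinea pig and Damaraland libraries were all above the mouse libraries, and naked mole-rat replicate 3 was among the mouse libraries, with 25 reads or 92.6 scaled reads (exact Poisson 95% interval 59.9 to 137).

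Tbx2 was called higher than in the mouse in the guinea pig, by 1.15 (SE 0.30, limma adjusted p = 0.00386), and in the naked mole-rat, by 1.09 (SE 0.30, adjusted p = 0.00481). The Damaraland difference of 0.99 (SE 0.27, adjusted p = 0.00429) lay just under the size threshold, and was called after median centring (1.05), by voom on the recovered reads (1.46, adjusted p = 0.00162) and without Damaraland replicate 1, 2 or 3 or mouse replicate 2 (1.01 to 1.09). Leaving out naked mole-rat replicate 3 raised the naked mole-rat difference to 1.58 (adjusted p = 7.48e-06), and it fell short of the size threshold without naked mole-rat replicate 1 (0.92), naked mole-rat replicate 2 (0.77) or mouse replicate 1 (0.99). With all libraries the 3 other species differed from each other by at most 0.16 in their means. Without naked mole-rat replicate 3 the naked mole-rat exceeded the Damaraland mole-rat by 0.59 (adjusted p = 0.0139) and the guinea pig by 0.43 (adjusted p = 0.0844). The average contrast was 0.47 (SE 0.20, adjusted p = 0.0533) with all libraries, 0.71 (adjusted p = 0.000207) without naked mole-rat replicate 3 and 0.84 (adjusted p = 0.00593) by voom, all under the size threshold. Of 9 atrial markers 8 were found, and they summed to 1080 to 3900 scaled reads in mouse, 11400 to 30700 in guinea pig, 13300 to 46400 in naked mole-rat and 22500 to 51800 in Damaraland hearts. The largest term was Nppa in naked mole-rat and mouse hearts, Stard10 in Damaraland hearts and Dkk3 in guinea pig hearts, so the sum is not a measure of atrial tissue. Of the 8, 7 had their lowest mean in the mouse and Nr2f1 its highest, and Bmp10 was at 0 reads in 2 of the 3 mouse hearts. The part of atrial RNA in the low mouse Tbx2 was not tested.

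Mef2a (ENSMUSG00000030557), the MEF2 gene most tied to energy metabolism in adult heart muscle, separated the species into 2 levels that cut across the mole-rats and the outgroups. Damaraland hearts stood at 12.29, 11.89, 12.13, 12.01 and 11.39 (mean 11.94 ± 0.34, 3940 scaled reads), and mouse hearts at 12.28, 12.14 and 12.22 (12.22 ± 0.07, 4680 scaled reads). Naked mole-rat hearts stood at 10.24, 10.02 and 10.58 (10.28 ± 0.28, 1180 scaled reads), and guinea pig hearts at 10.22, 9.76 and 9.56 (9.85 ± 0.34, 858 scaled reads). Every library of the high species was above every library of the low species.

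All 4 contrasts of Mef2a between a high and a low species were called. Naked minus Damaraland mole-rat was -1.66 (SE 0.20, limma adjusted p = 2.66e-06), naked mole-rat minus mouse -1.94 (SE 0.23, adjusted p = 1.42e-06), and guinea pig minus mouse -2.37 (SE 0.23, adjusted p = 1.77e-07). The Damaraland mole-rat exceeded the guinea pig by 2.10 (SE 0.20, adjusted p = 1.67e-07). Mouse and Damaraland means differed by 0.27 (SE 0.20, adjusted p = 0.25). Naked mole-rat and guinea pig means differed by 0.43 (SE 0.23, adjusted p = 0.112), and neither difference passed the p threshold. Because 1 mole-rat and 1 outgroup were high, the average of the mole-rats differed from that of the outgroups by 0.08 (SE 0.15, adjusted p = 0.663). Of the tested genes, Zfp407, Saraf and Lrrc1 had species means most like those of Mef2a, with root-mean-square differences of 0.115, 0.119 and 0.147 over the 4 centred means.

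Mef2c (ENSMUSG00000005583), the MEF2 gene that the embryonic heart needs to loop and form a right ventricle, was highest in the naked mole-rat and lowest in the Damaraland mole-rat. The naked mole-rat hearts stood at 11.59, 11.90 and 11.56 (mean 11.68 ± 0.19, 3220 scaled reads), and the guinea pig hearts at 11.12, 10.74 and 11.22 (11.03 ± 0.25, 2030 scaled reads). The mouse hearts stood at 10.70, 10.53 and 10.37 (10.54 ± 0.16, 1410 scaled reads), and the Damaraland hearts at 10.14, 10.11, 9.89, 10.11 and 9.45 (9.94 ± 0.29, 917 scaled reads). No library of any species overlapped with a library of another species. Naked mole-rat hearts also had the most hepatocyte marker RNA: 5 of 8 markers were found, at 11700 to 31800 scaled reads against 3480 to 6800 in Damaraland, 3850 to 5650 in guinea pig and 326 to 1160 in mouse hearts. Most of it was Alb, 4 of the 5 had their highest mean there, and none was at 0 in any species. Their part in the high Mef2c was not tested.

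The difference between the 2 mole-rats was 1.74 for Mef2c (SE 0.18, limma adjusted p = 3.68e-07), the opposite sign of that for Mef2a. The naked mole-rat also exceeded the mouse, by 1.15 (SE 0.20, adjusted p = 9.87e-05), and the Damaraland mole-rat lay below the guinea pig, with a contrast of -1.09 (SE 0.18, adjusted p = 6.19e-05). The last call ended without Damaraland replicate 5 (-0.96) or guinea pig replicate 3 (-0.99). Neighbours in the order passed the p threshold with smaller differences: 0.66 between naked mole-rat and guinea pig (adjusted p = 0.00974), 0.49 between guinea pig and mouse (adjusted p = 0.0447) and 0.59 between mouse and Damaraland mole-rat (adjusted p = 0.00803). The average contrast was 0.03 (SE 0.14, adjusted p = 0.851).

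**Figure D3:**
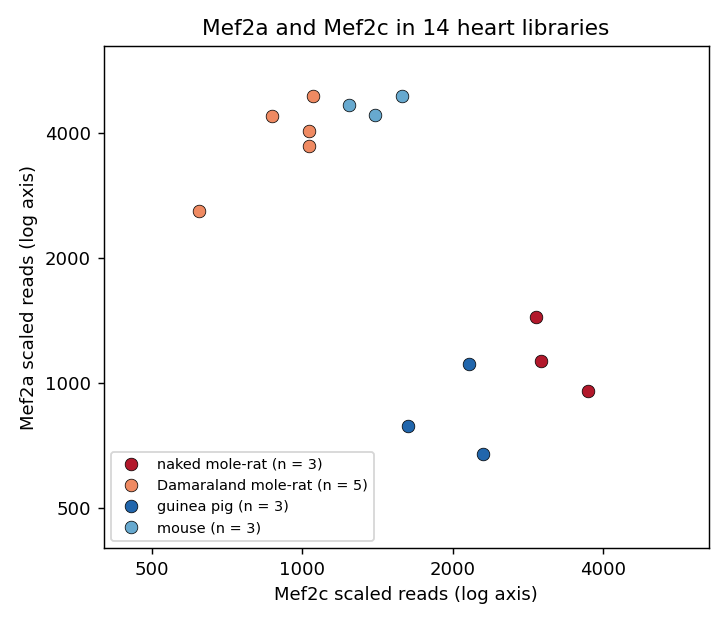
Scaled reads of Mef2a (vertical axis, log scale) against Mef2c (horizontal axis, log scale) in each of the 14 heart libraries, with 1 dot per library and a colour per species. Damaraland and mouse hearts lie at 2600 scaled reads of Mef2a or more, and naked mole-rat and guinea pig hearts at 1440 or fewer with higher Mef2c.

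The plot of Mef2a against Mef2c shows the libraries in separate groups. The ratio of their scaled reads, a measure chosen after the values were seen and given with no test, was 0.257 to 0.491 in naked mole-rat, 0.294 to 0.518 in guinea pig, 3.10 to 3.77 in mouse and 3.64 to 5.07 in Damaraland hearts. The ratio carries the length of each gene's reference in each species, so its absolute size is not a ratio of molecules. The sum of the 9 cardiomyocyte markers, in which Myh6 is the largest term, split the species in the same way, at 1510000 to 2010000 scaled reads in Damaraland and 1190000 to 1300000 in mouse hearts, against 640000 to 1100000 in naked mole-rat and 884000 to 1000000 in guinea pig hearts. Of the 9, 5 followed this split in their means (Myh6, Actc1, Tnni3, Pln and Mb), whereas Ryr2 ran the opposite way, with 130000 scaled reads in naked mole-rat and 52700 in Damaraland hearts. None of these markers was at 0 in any library. Their part in the Mef2a and Mef2c differences was not tested.

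Hand2 (ENSMUSG00000038193), the helix-loop-helix factor of the right ventricle, the endocardium and the cardiac nerves, was highest in the Damaraland mole-rat. The Damaraland hearts stood at 11.35, 10.92, 11.50, 10.82 and 11.46 (mean 11.21 ± 0.32, 2330 scaled reads). Naked mole-rat hearts stood at 10.85, 11.02 and 9.19 (10.35 ± 1.01, 1420 scaled reads), guinea pig hearts at 10.15, 9.43 and 10.28 (9.95 ± 0.46, 942 scaled reads) and mouse hearts at 9.55, 9.57 and 9.39 (9.50 ± 0.10, 646 scaled reads). All Damaraland libraries and naked mole-rat replicates 1 and 2 were above all outgroup libraries. Naked mole-rat replicate 3, with 136 reads or 504 scaled reads (exact Poisson 95% interval 423 to 596), was the lowest heart of all.

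Hand2 was called higher in the Damaraland mole-rat than in the guinea pig, by 1.26 (SE 0.33, limma adjusted p = 0.00314), and than in the mouse, by 1.71 (SE 0.33, adjusted p = 0.00021). The first of these ended at the threshold without guinea pig replicate 2, where it was 1.0 (adjusted p = 0.0291). The mole-rat average exceeded the outgroup average by 1.05 (SE 0.24, adjusted p = 0.00115). This call ended without naked mole-rat replicate 1 (0.93), naked mole-rat replicate 2 (0.89) or guinea pig replicate 2 (0.92), and without naked mole-rat replicate 3 the difference was 1.35 (SE 0.16, adjusted p = 2.35e-06). The naked mole-rat differed from the mouse by 0.85 (SE 0.36, adjusted p = 0.0502) with all libraries and by 1.43 (adjusted p = 0.000128) without replicate 3, with 1.04 (adjusted p = 0.0217) by voom, and from the guinea pig by 0.40 (adjusted p = 0.357) and 0.98 (adjusted p = 0.00325). Neighbouring species did not differ beyond the size threshold, at 0.86 between Damaraland and naked mole-rat (the contrast naked minus Damaraland was -0.86, adjusted p = 0.0305), 0.40 between naked mole-rat and guinea pig and 0.45 between guinea pig and mouse (adjusted p = 0.3). The contrast of the mole-rats was called without naked mole-rat replicate 1 (-1.11) or 2 (-1.19), and was -0.28 (adjusted p = 0.311) without replicate 3.

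Of the endocardial list only Vwf, which other endothelium also makes, was higher in both mole-rats than in both outgroups. The 4 of 5 markers found summed to 8960 to 9640 scaled reads in naked mole-rat and 4610 to 9720 in Damaraland hearts, and to 2340 to 2810 in guinea pig and 1710 to 3220 in mouse hearts. Most of this was Vwf, and Npr3, Nfatc1 and Tmem108 did not follow: Nfatc1 had its lowest mean in the naked mole-rat (7.92) and its highest in the mouse (8.85). Naked mole-rat replicate 3, lowest for Hand2, had an endocardial sum of 9280, beside 8960 and 9640 in replicates 1 and 2. The 8 general endothelial markers found summed higher in the outgroups, at 14300 to 20500 in guinea pig and 16200 to 19600 in mouse hearts, against 9400 to 12600 in naked mole-rat and 11400 to 13500 in Damaraland hearts, an order that 3 of the 8 followed in their means. Their part in the Hand2 difference was not tested. Hand2 and Tbx5 have antisense neighbours, and the use of strand in counting is not given in the sources used here, so reads of a gene and its partner cannot be told apart.

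Hand1 (ENSMUSG00000037335), the sister of Hand2 in the left ventricle, was read in guinea pig and naked mole-rat hearts and hardly at all in the others. Guinea pig hearts held 76, 78 and 100 reads, naked mole-rat hearts 20, 20 and 2, Damaraland hearts 0, 0, 1, 0 and 0, and mouse hearts 0, 0 and 0. Pooled per species this was 61.8 scaled reads in guinea pig, 14.0 in naked mole-rat and 0.181 in Damaraland hearts. In mouse hearts the level was under the limit of 0.743 scaled reads that a count of 0 allows, taken as 3 reads over the group.

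Set against the mouse limit of 0.743 scaled reads, pooled Hand1 was 83.2-fold higher in guinea pig and 18.9-fold higher in naked mole-rat hearts. These 2 ratios leave out the counting error of the guinea pig and naked mole-rat reads, so they are not lower bounds. Against the single Damaraland read the ratio was 341 for the guinea pig (95% counting interval 60.7 to 13500) and 77.5 for the naked mole-rat (13.2 to 3130). Counting intervals cover no difference between animals. In a fit without the filter on low values, limma called the guinea pig contrasts with the Damaraland mole-rat (-1.64, adjusted p = 1.76e-08) and the mouse (1.67, adjusted p = 3.41e-08). The naked mole-rat contrasts were 0.74 against the Damaraland mole-rat (adjusted p = 1.41e-05), 0.77 against the mouse (adjusted p = 1.97e-05) and -0.90 against the guinea pig (adjusted p = 6.58e-06), under the size threshold on this compressed scale. All 9 members are named in the RefSeq annotation of the Damaraland assembly DMR_v1.0_HiC. Whether the reference used for counting held Hand1 for each species is not given in the sources used here, and its part in the counts of 0 was not tested.

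The partners of these factors were listed as 40 cardiac regulators, of which 33 were in the table and 29 were tested. Their median difference in the mole-rat average was 0.01, beside -0.01 over all tested genes. Of the 29, 0 were called higher and 5 lower, beside 1153 higher and 1340 lower, together 23.4%, of all 10667 tested genes. The largest was Prrx1, a homeobox factor of mesenchyme, at -2.31 (SE 0.12, limma adjusted p = 5.81e-11), with means of 6.77 in naked mole-rat, 6.45 in Damaraland, 7.40 in guinea pig and 10.45 in mouse hearts. Next were Esrrg, a nuclear receptor that drives oxidative metabolism in heart muscle, at -1.84 (SE 0.14, adjusted p = 6.52e-09), and Mef2d, the closest relative of the MEF2 genes above, at -1.35 (SE 0.25, adjusted p = 0.000131). The other two, named for completeness after their values were seen, were Irx5 at -1.07 and Tbx3 at -1.06.

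Mef2d and Esrrg differed from Mef2a and Mef2c in their pattern. Mef2d means were 10.14 in naked mole-rat and 10.48 in Damaraland hearts, against 11.50 in guinea pig and 11.81 in mouse hearts. Mef2d was called lower in all 4 contrasts of a mole-rat with an outgroup, from -1.67 to -1.02 (largest limma adjusted p = 0.0122), as was Esrrg, from -1.99 to -1.69. The smallest Mef2d difference lay at the size threshold. These were 2 of the 29 tested regulators, beside 4.68% of all tested genes called in all 4 with 1 sign. The MEF2 family thus held a member lower in both mole-rats (Mef2d), a member high in Damaraland and mouse hearts (Mef2a) and a member highest in naked mole-rat hearts (Mef2c).

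Of 26 textbook targets of these factors, 23 were in the table and were tested. In the mole-rat average 5 were higher and 2 lower, with a median of 0.07, and 0 were called in all 4 contrasts, where 23.4% and 4.68% of all tested genes were called. Nppa, the natriuretic peptide gene that GATA4, NKX2-5 and TBX5 activate and TBX2 represses, rose by 2.59 (SE 0.72, adjusted p = 0.00447), with means of 13.60, 12.61, 10.62 and 10.40 in naked mole-rat, Damaraland, guinea pig and mouse hearts. Gja5, the connexin of atria and conduction fibres and a TBX5 target, rose by 1.80 (SE 0.25, adjusted p = 7.73e-06), with a mean of 11.08 in Damaraland hearts and 7.28 to 7.48 in the other 3 species. Ankrd1, a stretch-responsive gene bound by GATA4, rose by 1.58 (SE 0.22, adjusted p = 9.58e-06). Kcnj2 at 1.17 and Myl2 at 1.05 were the other two higher targets, named after their values were seen.

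The targets that fell were Ttn, the giant sarcomere spring, at -2.52 (SE 0.19, adjusted p = 6.32e-09) and Atp2a2, the calcium pump of the sarcoplasmic reticulum, at -1.05 (adjusted p = 1.94e-05). Both were highest in the mouse, with Ttn at 20.07 and Atp2a2 at 18.55, and the other species lay at 14.49 to 16.97 for Ttn and 16.60 to 16.98 for Atp2a2. The called targets thus included both directions. In the same average Gata4 was called lower, and Nkx2-5 and Tbx5 were not called with or without naked mole-rat replicate 3. A link between the levels of the factors and of their targets was not tested. Nppa is itself an atrial marker and stood at 32100 scaled reads in naked mole-rat replicate 3, against 12200 and 4760 in replicates 1 and 2. In the outgroups it stood at 10300 in guinea pig replicate 2, against 322 and 864, and at 3400 in mouse replicate 2, against 439 and 1280. The Nppa contrast was 2.25 (adjusted p = 0.0151) without naked mole-rat replicate 3 and 3.27 (adjusted p = 0.000282) without guinea pig replicate 2. The part of the atrial share in the Nppa difference was not tested.

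Genes with species means closest to those of the other wide-spanning members were named by the same rule as for Mef2a. For Gata4 these were Patj (root-mean-square difference 0.064 over 4 species), Vasp (0.094) and Map3k5 (0.10). For Tbx20 they were Trim41 (0.052), Nudt13 (0.065) and Tns1 (0.077). Likeness over 4 means is a description of these groups only.

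Liver gave a second readout of the same genes in 14 libraries, 5 of them from Damaraland mole-rats, 4 from naked mole-rats, 3 from guinea pigs and 2 from mice. They had the same ranges of age, with 1 female among the Damaraland mole-rats and all others male. The labels conflict for the Damaraland animal of heart replicate 1 and liver replicate 3, aged 48 months in heart and 36 months in liver. Heart and liver tables were normalised separately, with 0 reads at 4.29 in liver, so levels are not compared between tissues. By the labels all guinea pigs, most Damaraland mole-rats, some naked mole-rats and a mouse gave both tissues. A pattern seen in both tissues is therefore not an independent repeat. Nkx2-5 had at most 11 reads and Tbx5 at most 3 in any liver library, and Hand1 had 0 in all 14. These 3 genes did not pass the filter in liver, and 6 members were tested.

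**Figure D4:**
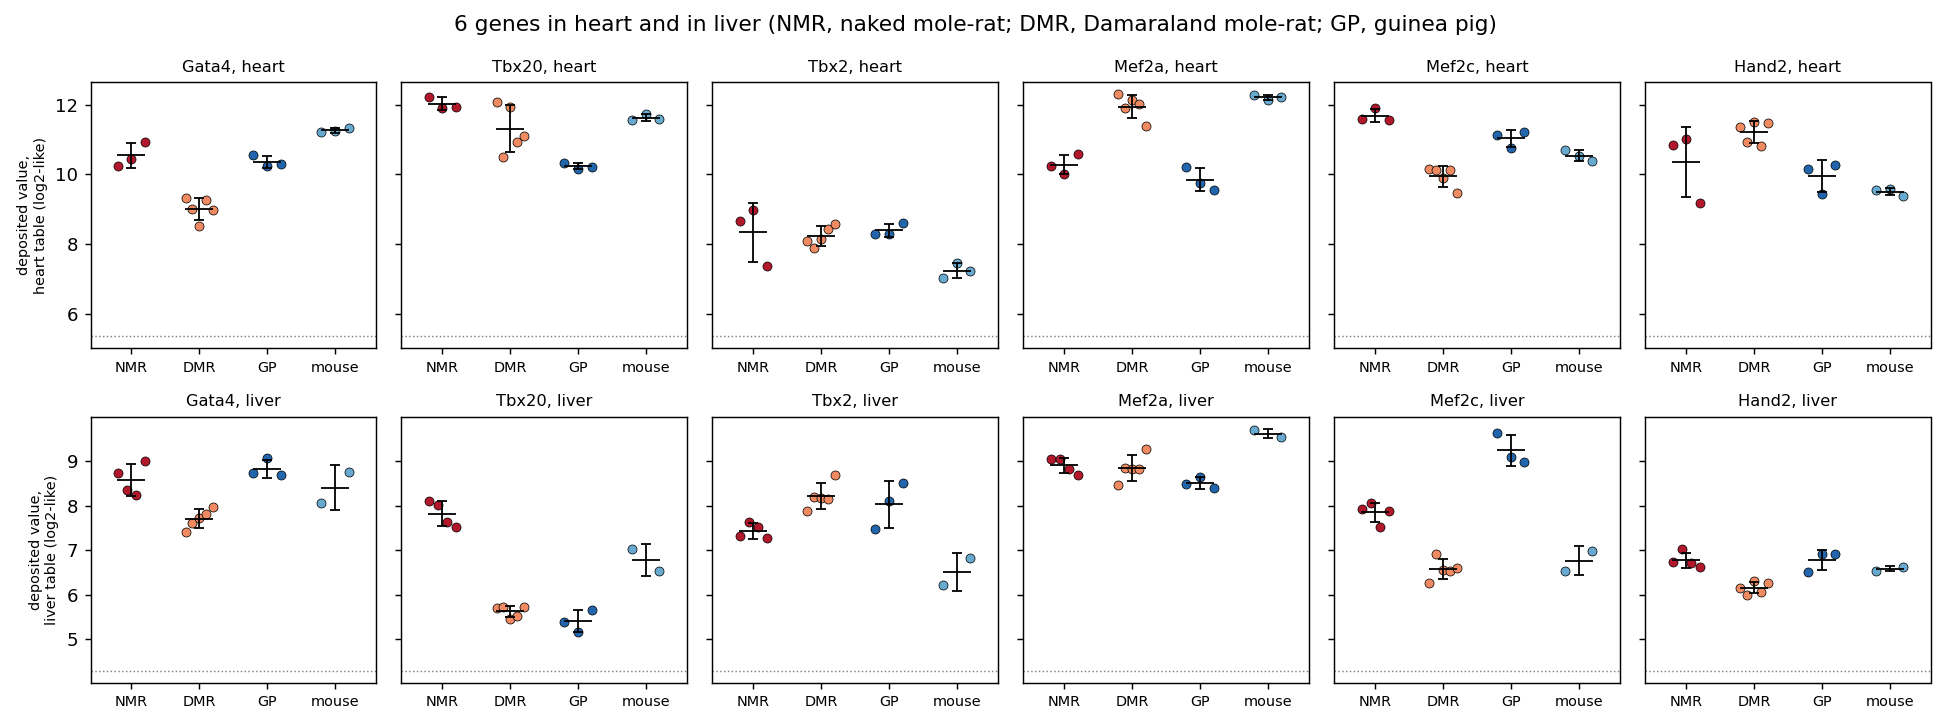
Variance-stabilised value (vertical axis, close to log2, each tissue on its own normalisation) of the 6 members tested in both tissues, by species and tissue; dots are libraries and black bars mean ± SD. Tbx20 means fall in the order naked mole-rat, mouse, Damaraland mole-rat, guinea pig in both tissues, with overlap between some neighbouring species. Mef2c is highest in naked mole-rat heart but in guinea pig liver.

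In liver limma called 0 of the 6 members between the averages of mole-rats and outgroups, where 28.1% of all tested genes were called. At an unadjusted p under 0.05 there were 4, all with an adjusted p under 0.05 but a difference under 1, and voom called 0. The largest was Mef2c at -0.79 (SE 0.15, adjusted p = 0.000158), with means of 7.85 ± 0.22 in naked mole-rat (n = 4), 6.57 ± 0.23 in Damaraland (n = 5), 9.24 ± 0.34 in guinea pig (n = 3) and 6.76 ± 0.32 in mouse livers (n = 2). Guinea pig livers were above all others for Mef2c, whereas in heart the naked mole-rat was. In both tissues the Damaraland mole-rat had the lowest mean.

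Tbx20 was higher in the mole-rat average in liver, by 0.63 (SE 0.14, adjusted p = 0.000867). Its liver means were 7.82 ± 0.28 in naked mole-rat, 6.78 ± 0.35 in mouse, 5.62 ± 0.13 in Damaraland and 5.40 ± 0.25 in guinea pig. Scaled reads were 148 to 238 in naked mole-rat livers. Damaraland livers, at 13.6 to 21.2, overlapped with guinea pig livers, at 7.44 to 19.0. The means ran in the same order as in heart, where only pairs with the guinea pig were called. Tests of species pairs in liver are not given here. Gata4 was lowest in the Damaraland mole-rat in liver too, at 7.71 ± 0.22, against 8.58 ± 0.35 in naked mole-rat, 8.41 ± 0.50 in mouse and 8.83 ± 0.21 in guinea pig livers. Its average contrast was -0.47 (SE 0.16, adjusted p = 0.0141), below the size threshold. In liver Gata4 is known from stellate and endothelial cells rather than muscle.

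Tbx2 was lowest in the mouse in both tissues. Its liver means were 6.52 ± 0.43 in mouse, 7.43 ± 0.17 in naked mole-rat, 8.03 ± 0.53 in guinea pig and 8.22 ± 0.29 in Damaraland livers, and the average contrast was 0.55 (SE 0.18, adjusted p = 0.0103). Mef2a had 8.91, 8.84, 8.51 and 9.62 in naked mole-rat, Damaraland, guinea pig and mouse livers and an average contrast of -0.19 (adjusted p = 0.197). The gap between Damaraland and naked mole-rat Mef2a in heart had no counterpart of its size in the liver means, a difference between tissues that was not tested. Hand2 had 6.77, 6.15, 6.77 and 6.58 in the same order, lowest in the Damaraland mole-rat, where heart Hand2 was highest, with a contrast of -0.21 (adjusted p = 0.129).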

How the data were processed

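Ribosomal-RNA-depleted total RNA of frozen heart and liver was made into NEBNext Ultra II libraries and sequenced on an Illumina NovaSeq, per the labels' protocols. Tools of the authors, per the submitters' processing notes, were cutadapt, Salmon 013.1 and DESeq2, with the mouse build GRCm38 and no order or roles stated. The reference for each species, the assignment of genes across species, strand use and treatment of reads shared by related genes are not given in the sources used here. The authors deposited variance-stabilised values, a log2-like unit, in separate tables for heart and liver, with 13928 rows each, of which 13921 were matched to a symbol. Another 15 columns in heart and 11 in liver could not be tied to samples of this series and were not used. Inverting the transform gave whole reads for 100% of values (tolerance 0.001 reads).

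The deposited values entered limma 3.58.1 (R 4.3.3), with a coefficient per species, a variance trend and Benjamini-Hochberg adjustment over 10667 genes in heart and 10887 in liver. The script was tested on simulated data. Replicates are separately named animals. Alternatives were other filters, median centring, quantile normalisation, no trend, voom on recovered reads, no size threshold, a replicate block and each library left out. The members and lists were chosen with earlier results of these data known. All listed factors, up to 3 called genes per list and direction, and the 3 genes most like each of the 3 widest-spanning members were named by rule.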

Additional observations from a re-analysis of the deposited data

Results flagged for a closer look

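Among 25 groups of 4 or 5 libraries tested for a value far from the rest, 1 stood apart, where chance gives about 1 in 20. It was Hand1 in Damaraland heart replicate 3, at 5.54 against 5.36 in the other 4 Damaraland hearts, which is 1 read against 0.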

How the results depend on the processing

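The count of members called between mole-rats and outgroups in heart, 2, was 1 after median centring or quantile normalisation and 0 to 2 when each library was left out. Between naked mole-rat and guinea pig it was 1, and 1 to 2 when each library was left out. With no size threshold the counts were 6 in place of 3 for naked against Damaraland mole-rat, 2 in place of 1 for naked mole-rat against guinea pig, 5 in place of 2 for Damaraland mole-rat against mouse, 5 in place of 3 for guinea pig against mouse and 4 in place of 0 in liver. The sign changed in leave-one-out fits for average contrasts near 0: Nkx2-5 ran from -0.34 to 0.33 and Mef2c from -0.04 to 0.09. The other counts stayed within 1.5 times, in 163 fits. Over all heart genes voom called 3841 between mole-rats and outgroups, against 2493. Leaving out a mouse liver leaves 1, assumed to vary like the other groups. Same-numbered libraries of different species had residual correlations of -0.26 to 0.30 (median -0.02), beside -0.23 to 0.23 (median -0.01) for different numbers. Of 12 libraries, 6 correlated best with their own number. The share that chance would give was not worked out, so these values do not settle whether the numbers mark a batch. With the replicate block the Damaraland and guinea pig count was 4 in place of 5, since Mef2c stood at -0.98 (limma adjusted p = 0.000445). The other counts were unchanged. The low Nkx2-5, Tbx2 and Hand2 of naked mole-rat replicate 3 lie outside the counting intervals of replicates 1 and 2, which cover counting error only. For Hand1 that library held 2 reads, with an exact Poisson 95% interval of 0.897 to 26.8 scaled reads. The part of depth in these values was not tested.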
